A study of Mus musculus with 16 samples.

Results

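The comparison described here is between female and male liver in mice that carry the human CYP2B6 gene, a cytochrome P450 of liver that oxidises drugs and unsaturated fatty acids. Libraries were chosen by the genotype and sex in their titles: hCYP2B6-Tg females 1, 2, 4 and 5 against hCYP2B6-Tg males 2, 3, 4 and 5, which are 8 of the 16 libraries of the series. The genes described are autosomal genes of metabolism, immunity and signalling, set out in 38 lists with 1060 genes in all. Of these, 959 had enough counts to be tested and 101 did not. The whole table held 41585 gene rows, of which 13470 were tested, 12739 of them autosomal.

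All mice were C57BL/6 and were fed a diet with 60% fat for 16 weeks, so every value below comes from liver under that diet. The other 8 libraries were from Cyp2b-null females and males, mice that lack Cyp2b genes, and their sex difference is given as the closest comparison. The age of the mice, the promoter of the transgene and which mouse Cyp2b genes the hCYP2B6-Tg mice keep were not stated in the labels, and the transgene itself was not analysed here. Counts over Cyp2b9, Cyp2b10, Cyp2b13, Cyp2b19 and Cyp2b23, the 5 mouse genes looked at, summed to between 15 and 44 per library in hCYP2B6-Tg females and between 7 and 80 in hCYP2B6-Tg males. In Cyp2b-null libraries that sum lay between 1 and 9.

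The liver of rodents differs by sex because the pituitary releases growth hormone in separated pulses in males and nearly continuously in females. The pulses drive the transcription factor STAT5b, and the female pattern maintains CUX2 and HNF6, so that many genes for steroid, drug and pheromone metabolism are set high in one sex and almost silent in the other. Fatty diets, oestrogen and androgens act on lipid synthesis, coagulation and immune genes of the same cells.

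Library totals of the 8 hCYP2B6-Tg libraries ran from 6520196 to 8946107 counts, and Xist and Ddx3y fitted the labelled sex in each of the 16 libraries. All 12 pairs of hCYP2B6-Tg libraries of the same sex differed by more than counting noise, with a chi-square per degree of freedom of 6.53 to 14.3. Over autosomal genes the first principal component carried 41.8% of the variance and separated the sexes, and the second carried 6.89%. The labels do not say that each library is a separate animal, so p-values measure the spread between these libraries. Hepatocyte markers were high throughout, summing to between 102400 and 122900 CPM per library. CPM stands for counts scaled to a common library size, here adjusted by TMM. A level of 0 counts allows up to 0.335 to 0.460 CPM in these 8 libraries, taking 3 counts as the limit, and such limits cover counting error only.

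With edgeR's quasi-likelihood test, 1305 of the 12739 autosomal genes differed between hCYP2B6-Tg females and males at a Benjamini-Hochberg adjusted p under 0.05, which is 10.2%. Females were higher for 598 (4.69%) and males for 707 (5.55%). Over all 13470 genes the split was 632 higher in females and 749 higher in males. Scaling by library totals alone turned that split to 773 and 605, so the balance of the directions depends on the scaling. Most differences were moderate: the median size among called autosomal genes was 0.62 on the log2 scale, 360 genes (2.83%) reached 1, 132 reached 2 and 71 reached 3. Among autosomes the share of tested genes called was highest on chromosome 19 at 14.3%, where the Cyp2c cluster lies, and lowest on chromosome 2 at 7.43%.

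Among the 959 tested members, 299 differed by sex, or 31.2%, of which 137 were higher in females and 162 in males. The lists were drawn up around functions known to differ by sex in liver, and a member near 0 in one sex could enter the test only through the other, so these shares describe the lists and support nothing by themselves. In metabolism 185 of 503 tested members differed, 62 higher in females and 123 in males. In immunity 60 of 206 differed, with 45 higher in females and 15 in males. In signalling 56 of 256 differed, 31 higher in females and 25 in males. The median log2 difference was -0.12 in metabolism, 0.26 in immunity and 0.02 in signalling, against 0.02 over all autosomal genes tested. Positive log2 values are higher in females throughout. Estimates were positive for 52.6% of all autosomal genes tested. Members of a list are not independent of each other.

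**Figure D1:**
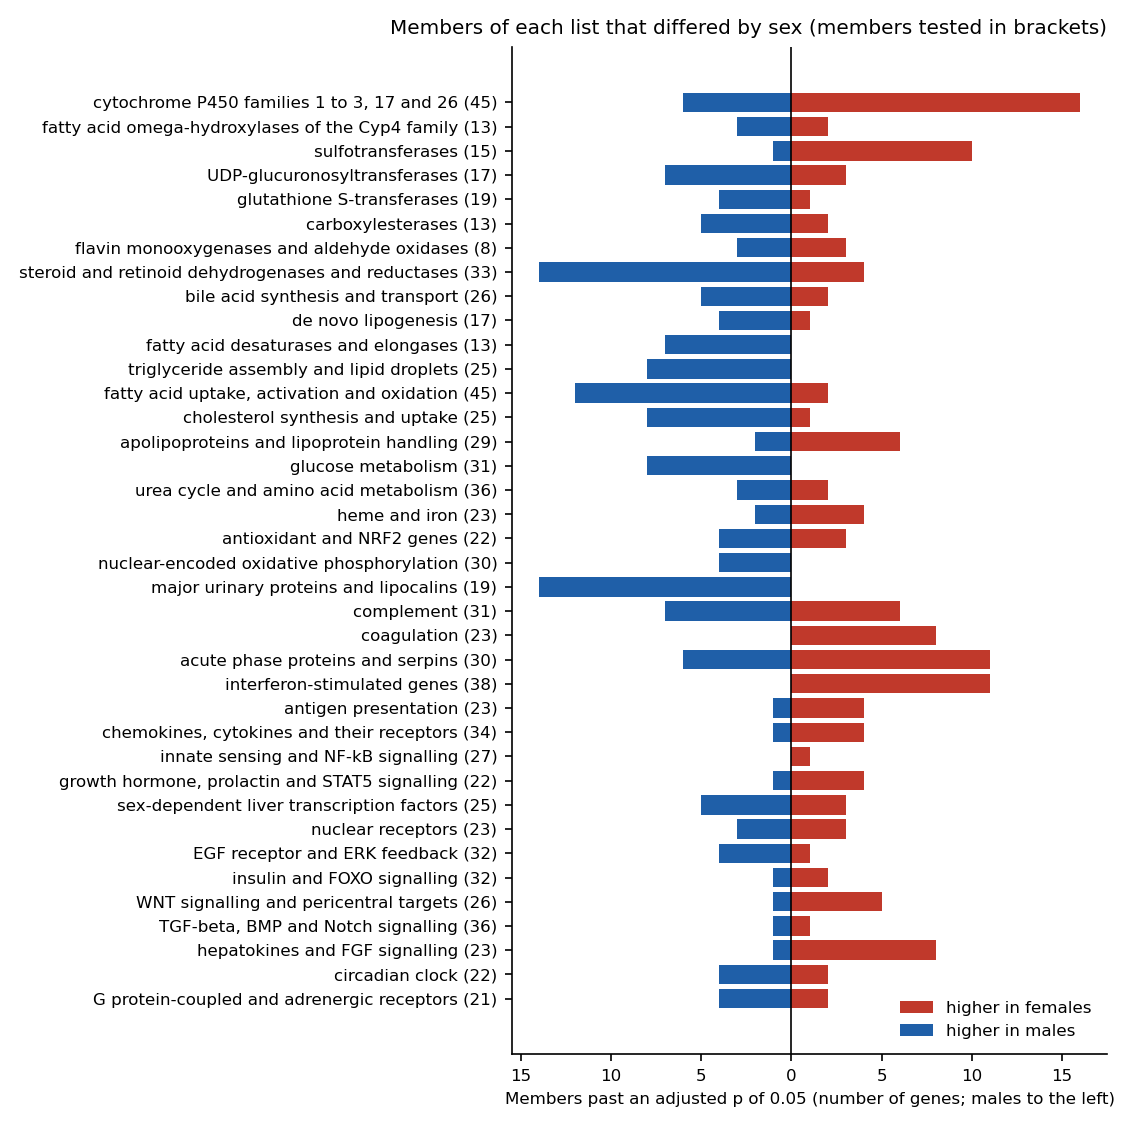
Number of members of each list that passed an adjusted p of 0.05 in hCYP2B6-Tg liver, with bars to the right for genes higher in females and to the left for genes higher in males, and the number tested in brackets. Sulfotransferases, coagulation and interferon-stimulated genes lay mostly or wholly to the female side (10, 8 and 11 genes), while major urinary proteins, lipid droplet and glucose genes lay wholly to the male side (14, 8 and 8).

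The genes with the largest differences were nearly silent in one sex. Among the 12 most female-biased were Cyp3a41a, Cyp3a41b, Cyp3a44, Cyp3a16 and Cyp2c69 among the P450s, Sult2a1, Sult2a2, Sult2a3, Sult2a5 and Sult3a1 among the sulfotransferases, and A1bg, a secreted glycoprotein of the immunoglobulin superfamily. The 12 most male-biased were Cyp4a12a and Cyp4a12b, the steroid dehydrogenase Hsd3b5, Elovl3, the organic anion transporter Slco1a1, Mup20 with the pseudogenes Mup-ps19 and Mup-ps21, the serpin pseudogene Serpina4-ps1, the N-acetyltransferase-like Nat8f5, the complement protease Cfd and Pitx3. Pitx3, a homeobox gene of lens and midbrain, overlaps Elovl3 at one end on chromosome 19 (Elovl3 at 46131897 to 46135694, Pitx3 at 46135281 to 46148325). The labels state no strand setting for the counting, so reads of the pair cannot be told apart.

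**Figure D2:**
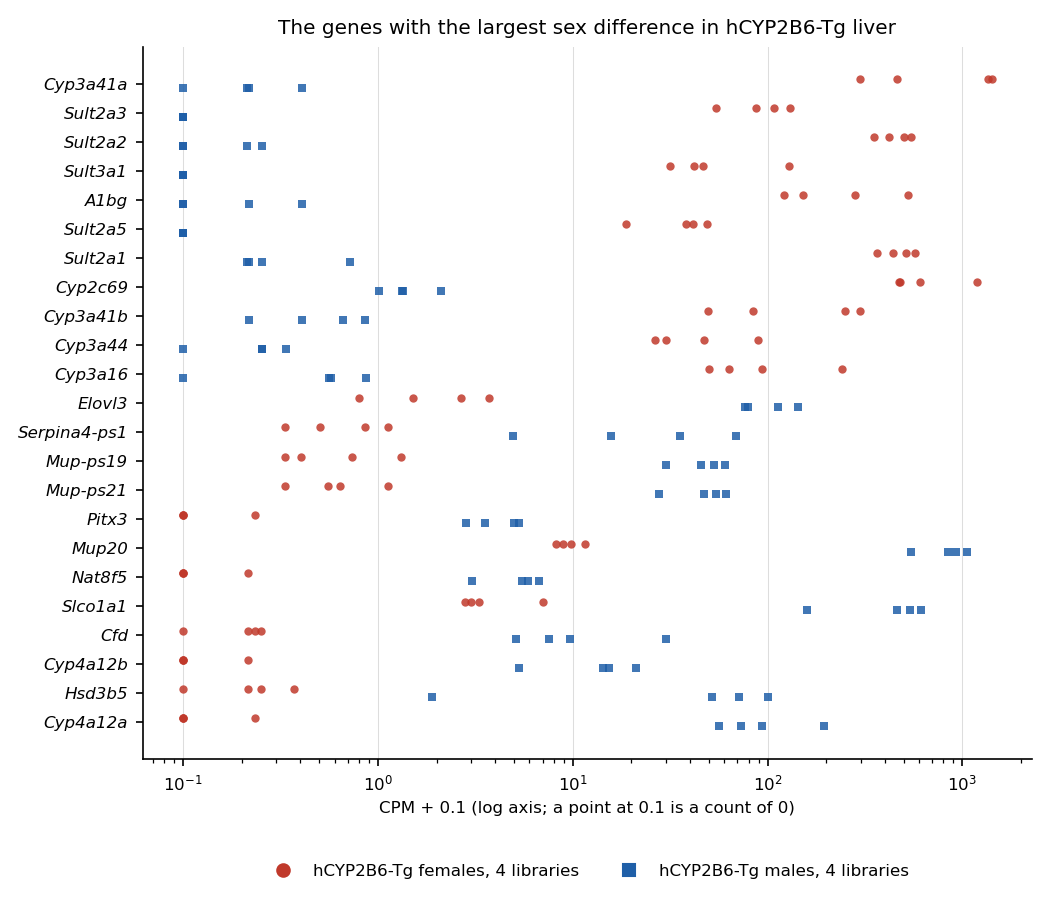
CPM plus 0.1 on a log axis for 11 of the 12 genes most raised in females and the 12 most raised in males, 1 point per hCYP2B6-Tg library (circles females, squares males). The genes were picked among those without overlap between the sexes, which held for 15.6% of all autosomal genes tested. The lower sex sits at or near a count of 0 for most of the genes shown.

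Cytochrome P450 genes of families 1 to 3, 17 and 26 encode haem enzymes that oxidise drugs, steroids and retinoids. Of 45 tested members, 16 were higher in females and 6 in males, with a median log2 difference of 0.28. Cyp2c40, an arachidonic acid epoxygenase and hydroxylase on chromosome 19 (39767073 to 39812814), had the smallest adjusted p of the list. Library values are given in the order females 1, 2, 4 and 5, then males 2, 3, 4 and 5. Cyp2c40 was at 429, 430, 499 and 335 CPM in the females and at 11.8, 8.92, 8.78 and 10.8 CPM in the males. The sexes were far apart, with a ratio of the means of 42.1 and a log2 difference of 5.40 ± 0.16 (SE, edgeR adjusted p = 1.06e-15). For all autosomal genes, 15.6% had every library of one sex above every library of the other. The neighbouring Cyp2c68 was at 561 ± 49.5 CPM in females and 221 ± 7.73 in males (mean ± SD, n = 4 libraries each, here and below), a smaller difference of 1.34 on the log2 scale.

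In the Cyp3a cluster on chromosome 5, 4 near copies were close to silent in males. Cyp3a41a (145694049 to 145720136) was at 300, 1357, 1412 and 460 CPM in the females and at 0.305, 0, 0.113 and 0.119 CPM in the males. Every female library was therefore far above every male one, although the females themselves spread widely. Cyp3a41b was at 170 ± 122 CPM in females against 0.438 ± 0.283 in males, Cyp3a44 at 48.0 ± 28.7 against 0.136 ± 0.0990, and Cyp3a16 at 112 ± 88.1 against 0.426 ± 0.318. The edgeR adjusted p of these 4 genes lay between 1.2e-10 (Cyp3a41a) and 6.95e-05 (Cyp3a16). Cyp3a16 missed the threshold under limma voom. Females 2 and 4 were the highest for each of the 4. Reads shared between such near copies may have been split in the counting, so the single copies are uncertain while their sum is less so. Other members of the cluster, looked at after their values were known, did not pass, and the difference between copies was not tested: Cyp3a11, the main drug-oxidising CYP3A of mouse liver, was at 1716 ± 147 CPM in females and 1222 ± 228 in males (adjusted p = 0.154), Cyp3a25 at 500.4 ± 59.6 and 624 ± 63.0 (0.0862), and Cyp3a59 at 44.7 ± 14.7 and 23.5 ± 6.48 (0.0505). Cyp3a57 was too low to be tested, with 9 counts in females and 1 in males.

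The 130 bases before the start sites of these copies are shown because the strongly female-biased copies and Cyp3a11 lie side by side in the genome. Sequences are from RefSeq, build GRCm38.p6, read 5′ to 3′ on the gene's strand, which is the minus strand for all of the Cyp3a copies shown. Capitals mark matches to ATTGAT on either strand (read as ATCAAT here), a core of the binding motif of HNF6. The windows are chr5:145720137-145720266 for Cyp3a41a, chr5:145584731-145584860 for Cyp3a41b, chr5:145805875-145806004 for Cyp3a44, chr5:145469724-145469853 for Cyp3a16 and chr5:145879855-145879984 for Cyp3a11.
Cyp3a41a: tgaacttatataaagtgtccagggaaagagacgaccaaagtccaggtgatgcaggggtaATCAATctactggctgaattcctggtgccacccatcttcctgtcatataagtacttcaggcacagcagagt
Cyp3a41b: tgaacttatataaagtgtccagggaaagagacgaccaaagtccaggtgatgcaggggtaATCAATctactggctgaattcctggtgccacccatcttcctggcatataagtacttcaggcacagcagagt
Cyp3a44: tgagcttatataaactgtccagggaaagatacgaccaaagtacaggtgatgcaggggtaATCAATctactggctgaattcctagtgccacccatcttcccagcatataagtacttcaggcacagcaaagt
Cyp3a16: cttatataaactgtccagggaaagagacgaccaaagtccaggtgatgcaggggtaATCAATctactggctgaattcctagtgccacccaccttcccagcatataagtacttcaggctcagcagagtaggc
Cyp3a11: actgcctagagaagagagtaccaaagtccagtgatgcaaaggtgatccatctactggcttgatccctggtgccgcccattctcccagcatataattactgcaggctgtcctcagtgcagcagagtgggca
The match starts 71 bases before the annotated start in Cyp3a41a, Cyp3a41b and Cyp3a44, and 75 bases before it in Cyp3a16. Against Cyp3a41a, 129 of 130 bases were identical in Cyp3a41b, 121 in Cyp3a44 and, after an offset of 4 bases, 122 in Cyp3a16, so the 4 matches are copies of a shared sequence and not separate occurrences. The window of Cyp3a11 held no match in its 250 bases, which says only that these letters are not there.

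Over the 14 of the 24 most biased genes that had a window of 250 bases in the RefSeq table, ATTGAT on either strand was found in 7 of 9 female-biased and 0 of 5 male-biased genes, and TTCNNNGAA, the palindromic STAT5 motif, in 2 and 0. The 7 comprised the Cyp3a near copies shown above, whose matches are copies of a shared sequence, with Cyp2c69, Sult3a1 and A1bg. Sult2a3 and Sult2a5, also among the 9, held no match to either motif. Sult3a1 and A1bg held both motifs. Their 130 bases, and those of Mup7 from the male-biased major urinary protein list, are shown with both motifs in capitals. Mup7 is not among the 24 genes and was picked by hand, outside the rule for named genes. The male-biased genes of the 24 that had a window, Hsd3b5, Slco1a1, Nat8f5, Cfd and Pitx3, held neither motif. Sult3a1 is at chr10:33857592-33857721 on the plus strand, A1bg at chr15:60921271-60921400 and Mup7 at chr4:60070476-60070605, both on the minus strand.
Sult3a1: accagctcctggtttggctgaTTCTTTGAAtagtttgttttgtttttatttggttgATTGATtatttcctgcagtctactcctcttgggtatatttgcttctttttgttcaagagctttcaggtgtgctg
A1bg: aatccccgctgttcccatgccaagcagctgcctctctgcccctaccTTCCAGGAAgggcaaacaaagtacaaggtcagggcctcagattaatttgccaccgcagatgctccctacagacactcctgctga
Mup7: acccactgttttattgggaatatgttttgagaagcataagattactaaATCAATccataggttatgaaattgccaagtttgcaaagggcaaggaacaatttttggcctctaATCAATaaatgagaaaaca
The STAT5 match starts 109 bases before the start in Sult3a1 and 84 before it in A1bg. The ATTGAT match of Sult3a1 starts at 74 bases, that of A1bg lies outside the stretch shown at 150 bases, and Mup7 held 2 such matches, at 82 and 19 bases. Across windows of the same length, ATTGAT was present in 4.02% for all autosomal genes tested, in 7.19% for genes higher in females and in 6.31% for genes higher in males. Among genes with a log2 difference of at least 2 it was present in 20.9% of windows on the female side (9 of 43) and 16.7% on the male side (10 of 60). These windows include near copies such as the Cyp3a genes, and no test was run. Over all windows of the RefSeq table, tested or not, the share was 6.72%. TTCNNNGAA was present in 6.06% of all, 6.83% of female-higher and 6.46% of male-higher windows. The matches are descriptions of sequence and were not tested as binding sites.

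Omega-hydroxylases of the Cyp4 family oxidise the far end of fatty acids. Among 13 tested members, 2 were higher in females and 3 in males, and the count was 3 in all when the 8 hCYP2B6-Tg libraries were fitted alone. Cyp4a12a on chromosome 4 (115299046 to 115332815), the male arachidonic acid hydroxylase, was at 93.8, 194, 55.9 and 72.9 CPM in the males. In the females 1 count was seen in all, in female 1, against 2986 counts in males. That gives a ratio of the CPM of 2994.5 with a 95% counting interval of 537 to 118320. Cyp4a12b, its close copy, had 1 count in females and 403 in males. On the other side Cyp4a31 was at 14.8 ± 3.96 CPM in females and 7.24 ± 3.43 in males, with male 4 inside the female range, and passed the edgeR test (adjusted p = 0.00966) but not when the 8 libraries were fitted alone. Cyp4v3, a fatty acid hydroxylase of eye and liver, was at 331 ± 14.1 and 421 ± 24.4 CPM.

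Sulfotransferases transfer sulfate to steroids, bile acids and phenols. Of 15 tested members, 10 were higher in females and 1 in males (median log2 difference 0.77). Sult2a2 on chromosome 7 (13733506 to 13779637) was at 504, 543, 352 and 422 CPM in the females and at 0, 0.154, 0.113 and 0 CPM in the males. Its 2 male counts against 14036 female counts give a ratio of the CPM of 6998 with a 95% counting interval of 1937 to 57790. Sult2a1 was at 473 ± 90.5 CPM in females against 0.250 ± 0.244 in males. The copies Sult2a3, Sult2a5 and Sult3a1 had no count in any male library, so only lower bounds can be given against a limit of 3 counts over the group: Sult2a3 was at least 985-fold higher in females, Sult3a1 at least 602-fold and Sult2a5 at least 382-fold. Sult3a1 was no longer past the threshold when the 8 libraries were fitted alone, and within females it was at 128 CPM in female 4 and between 31.5 and 46.7 CPM in the others. The exception of the family was Sult2a8, a sulfotransferase that acts on bile acids, at 503 ± 87.6 CPM in females and 1027 ± 155 in males, a log2 difference of -1.03 ± 0.16 (edgeR adjusted p = 0.000277). The phenol sulfotransferase Sult1a1 was 0.48 higher in females on the log2 scale. The Sult2a genes are near copies, and shared reads make single members uncertain.

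Other conjugating and oxidising families were mixed in direction. UDP-glucuronosyltransferases and their cofactor enzyme had 3 members higher in females and 7 in males of 17 tested, with Ugt2b1 at 249.5 ± 16.3 CPM in females and 441 ± 72.8 in males and Ugt1a9 at 23.3 ± 3.58 and 11.1 ± 3.02. Ugdh, which makes the UDP-glucuronic acid they use, was at 111 ± 27.2 and 196 ± 24.1 CPM. Glutathione S-transferases had 1 and 4 of 19. The microsomal Mgst1 was at 2043, 1954, 2246 and 1779 CPM in the females and at 3179, 3270, 3583 and 3446 CPM in the males. Males were thus higher in every library, by 0.75 on the log2 scale (edgeR adjusted p = 9.01e-07). Gsta3 was at 1410 ± 175 CPM in females and 2076 ± 119 in males. Gsta1 passed at an adjusted p of 0.0341 but overlapped between the sexes and lost its call without female 4, female 5, male 3 or male 4, with no count filter, with limma voom, and with the 8 libraries fitted alone. Mgst3, 0.59 higher in females, lost its call without female 1. The count for this list dropped to 3 without female 4, female 5 or male 3.

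Carboxylesterases hydrolyse esters, including drugs and acylglycerols. Of 13 tested, 2 were higher in females and 5 in males. Ces1c, a secreted esterase of mouse plasma, was at 3643, 4080, 3970 and 3957 CPM in females and at 2841, 2653, 2459 and 2672 CPM in males. That is 0.56 higher in females, while Ces2c was lower in them, at 9.09 ± 3.24 against 28.9 ± 4.70 CPM. Flavin monooxygenases and aldehyde oxidases were split evenly, with 3 higher in each sex of 8 tested. Fmo1, which oxidises nitrogen and sulfur in drugs, was at 335 ± 22.9 CPM in females and 209 ± 12.8 in males, and Fmo5 went the other way with 388 ± 46.4 and 622 ± 62.7 CPM. Aox3, an aldehyde oxidase, was at 324 ± 39.7 and 692 ± 72.6 CPM (log2 difference -1.09 ± 0.10, edgeR adjusted p = 7.04e-08).

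Steroid and retinoid dehydrogenases and reductases had 14 members higher in males and 4 in females of 33 tested, while 15 did not pass. Hsd3b5 on chromosome 3 (98618636 to 98645534), a 3-keto reductase of male liver, was at 71.2, 51.5, 1.80 and 101 CPM in the males and between 0 and 0.269 CPM in the females. Male 4 was far below the other males yet still above every female. The edgeR adjusted p was 2.55e-05, and the gene missed the threshold under limma voom. Srd5a1, which reduces testosterone to dihydrotestosterone, was at 28.3 ± 3.36 CPM in females and 72.7 ± 16.8 in males, a log2 difference of -1.36 ± 0.14. The retinal dehydrogenases Aldh1a1 (999 ± 118 and 1958 ± 410 CPM) and Aldh1a7 (141 ± 23.9 and 303 ± 40.3 CPM) were also higher in males.

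Genes of bile acid synthesis and transport had 2 members higher in females and 5 in males of 26 tested. Slco1a1 on chromosome 6 (141907281 to 141946962), which takes up organic anions from blood, was at 536, 464, 159 and 610 CPM in the males and at 2.69, 2.91, 6.96 and 3.20 CPM in the females. The sexes were 114-fold apart by the edgeR estimate, although male 4 was low and female 4 high within their groups. Its neighbour Slco1a4 was at 187 ± 29.4 CPM in females and 90.0 ± 25.996 in males. Cyp7b1, an oxysterol hydroxylase of the alternative bile acid pathway, was at 23.5 ± 2.71 and 92.1 ± 20.9 CPM (log2 difference -1.97 ± 0.19, edgeR adjusted p = 2.21e-06). Cyp7a1, the rate-limiting enzyme of the classical pathway and named after its values were seen, was at 213 ± 41.1 and 141 ± 23.7 CPM and did not pass (adjusted p = 0.264).

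De novo lipogenesis had 4 members higher in males and 1 in females of 17 tested, while 12 did not pass. The median log2 difference was -0.74 against 0.02 over all autosomal genes tested. Of the 17 estimates, 14 were on the male side, while 52.6% of all autosomal genes lay on the female side. Me1, which supplies NADPH, was at 121, 79.9, 57.4 and 65.9 CPM in the females and at 139, 228, 172 and 216 CPM in the males. Gpam on chromosome 19 (55067635 to 55127319), which starts glycerolipid assembly, was at 402, 304, 190 and 231 CPM in the females and at 578, 841, 611 and 697 CPM in the males. The sexes did not overlap for either gene, with log2 differences of -1.22 ± 0.21 and -1.27 ± 0.23 (edgeR adjusted p = 0.00174 and 0.00315). Pklr, the liver pyruvate kinase, was 0.71 lower in females on the log2 scale. The member higher in females was Nr1h3, the oxysterol receptor LXR alpha, at 115 ± 5.08 and 96.1 ± 8.11 CPM, and its call was lost without female 4, female 5, male 3 or male 4, with no count filter, and with the 8 libraries fitted alone. Fasn, the fatty acid synthase, and Acly, which makes cytosolic acetyl-CoA, were named after their values were seen: Fasn was at 862 ± 415 and 1442 ± 642 CPM (adjusted p = 0.356) and Acly at 329 ± 80.4 and 704 ± 238 CPM (0.0533). The list's count was 3 without female 5 or male 3, 8 without the Cyp2b-null female 1, and 9 with DESeq2 or limma voom.

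Desaturases and elongases had 7 of 13 tested members past the test, each higher in males. Scd1 on chromosome 19 (44394450 to 44407709), the stearoyl-CoA desaturase, was at 8336, 6270, 1420 and 4269 CPM in the females and at 13201, 20565, 11956 and 15884 CPM in the males. All males were above all females, and female 4 was the lowest. The log2 difference was -1.60 ± 0.42 (edgeR adjusted p = 0.0281), and the call was lost without female 5, male 3 or male 5 and when the 8 libraries were fitted alone. Scd3 lost its call without female 5 or male 3 or with no count filter. Elovl3, an elongase of very long saturated chains with strong male bias, was at 76.7, 143, 79.1 and 113 CPM in the males and at 2.56, 0.699, 3.63 and 1.41 CPM in the females. Elovl5, the elongase of polyunsaturated fatty acids, was at 845 ± 126 and 1333 ± 267 CPM. Called members numbered 4 without female 1, male 2 or male 5 or with no count filter, and 3 without female 5 or male 3.

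Triglyceride assembly and lipid droplet genes had 8 of 25 tested members past the test, each higher in males. Fitm1, which helps package triglyceride into droplets, was at 13.04, 13.4, 15.4 and 9.47 CPM in the females and at 52.2, 54.6, 71.4 and 54.8 CPM in the males. Cidec on chromosome 6 (113424634 to 113435760), which enlarges droplets in adipocytes and fatty hepatocytes, was at 1.61, 2.68, 1.06 and 2.05 CPM in the females and at 7.94, 22.3, 25.6 and 11.4 CPM in the males. Both were higher in every male library, by log2 differences of -2.19 ± 0.20 and -3.15 ± 0.35 (edgeR adjusted p = 4.13e-07 and 5.94e-06). Cidec and Cfd are also adipocyte markers: of the 7 adipocyte markers checked, they are the 2 that passed the test. Summed levels of the other 5 overlapped, at 3.61 to 6.66 CPM in females and 3.36 to 13.8 CPM in males, and male 4 was the highest. Lep and Retn were at 0 counts in both sexes, Adipoq at 1 count in females and 0 in males, and Plin1 at 6 and 0. Fabp4, the adipocyte fatty acid-binding protein, had 147 counts in females and 263 in males, with 123 of them in male 4, and did not pass (edgeR adjusted p = 0.211). In bulk liver, fewer cells of a type and less RNA per cell cannot be told apart.

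Fatty acid uptake, activation and oxidation had 2 members higher in females and 12 in males of 45 tested, with a median near 0 that changed sign between scalings. Every male was above every female for the peroxisomal thiolase Acaa1b, at 908 ± 97.0 CPM in females and 1412 ± 214 in males. The transporter Slc27a1 was higher in females, at 11.7 ± 1.41 and 5.79 ± 1.60 CPM. The number called was 9 without female 1 and 8 without female 5.

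Cholesterol synthesis and uptake genes had 8 of 25 members higher in males and 1 in females, with a median log2 difference of -0.51. Estimates were on the male side for 23 of 25, while 52.6% of all autosomal genes lay on the female side. Acat2, the cytosolic thiolase at the head of the pathway on chromosome 17 (12943042 to 12960725), was at 122, 103, 102 and 89.5 CPM in the females and at 166, 198, 159 and 186 CPM in the males. No female reached the lowest male, and the log2 difference was -0.77 ± 0.12 (edgeR adjusted p = 0.000149). Stard4, a carrier of cholesterol, and Hsd17b7, an enzyme of the pathway, were lower in females by 0.59 and 0.63 on the log2 scale. Srebf2, which encodes the transcription factor that drives the pathway, was the member higher in females, at 82.0 ± 3.13 and 65.3 ± 4.60 CPM. The count moved with the method: it was 17 with DESeq2, 14 with limma voom, 4 with no count filter, 5 without female 2, and 4 without female 5, male 3 or male 5.

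Lipoprotein genes went in both directions, with 6 higher in females and 2 in males of 29 tested. Vldlr, a receptor for triglyceride-rich lipoproteins, was at 43.0, 28.1, 29.2 and 21.1 CPM in the females and at 9.16, 5.23, 9.91 and 4.99 CPM in the males. That was 2.04 ± 0.24 higher in females on the log2 scale (edgeR adjusted p = 1.08e-05). Hepatic lipase Lipc (278 ± 19.1 and 173 ± 33.2 CPM), the plasma acyltransferase Lcat (435 ± 32.8 and 324 ± 25.4 CPM) and Apom, which carries sphingosine phosphate (55.6 ± 3.46 and 33.2 ± 7.80 CPM), were also higher in females. The list's count was 5 without female 4, female 5 or male 4.

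Glucose metabolism had 8 of 31 tested members past the test, each higher in males. Khk, the fructokinase, was at 351, 371, 276 and 292 CPM in the females and at 480, 466, 483 and 508 CPM in the males. Males were higher in every library, with a log2 difference of -0.59 ± 0.11 (edgeR adjusted p = 0.000509). Gbe1, the glycogen branching enzyme, was at 141 ± 8.57 and 231 ± 18.2 CPM. Called members numbered 5 without female 4, male 3 or male 5.

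**Figure D3:**
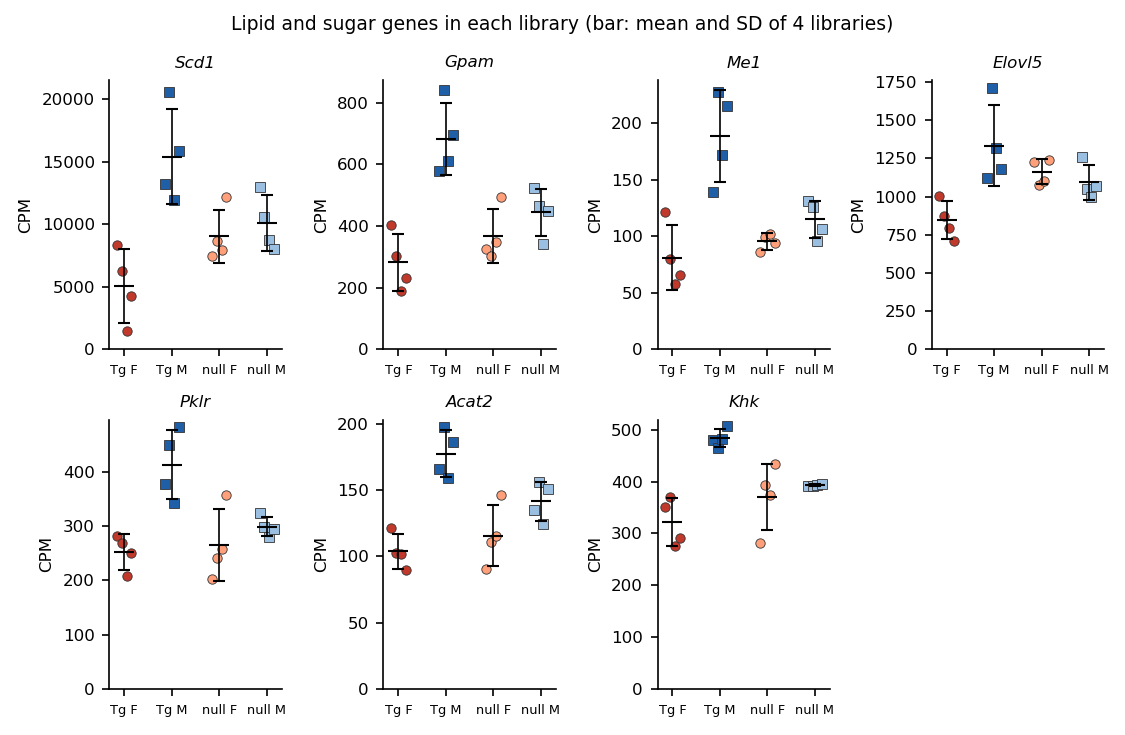
CPM per library of 7 lipid and sugar genes in hCYP2B6-Tg females, hCYP2B6-Tg males, Cyp2b-null females and Cyp2b-null males, with the mean and SD of 4 libraries as a bar; all axes start at 0. Each gene separates the sexes in hCYP2B6-Tg, while the Cyp2b-null groups overlap for all 7 and their means lie between the hCYP2B6-Tg means.

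Remaining metabolic lists had smaller counts. Urea cycle and amino acid genes had 2 members higher in females and 3 in males of 36 tested (8 in all without female 4), a share near the 10.2% of all autosomal genes. Tdo2, the tryptophan dioxygenase, was at 1034 ± 106 and 1812 ± 139 CPM, and Agxt, the glyoxylate aminotransferase, at 358 ± 26.4 and 229.9 ± 40.5 CPM. Heme and iron genes had 4 and 2 of 23, and 3 in all without female 5. Hamp2, a hepcidin of mouse, was at 978, 763, 228 and 457 CPM in the females and at 140, 116, 60.7 and 38.8 CPM in the males. The females spread widely yet stayed above all males, with a log2 difference of 2.78 ± 0.53 (edgeR adjusted p = 0.00508). Trf, transferrin, was at 14197 ± 510.02 and 11557 ± 1026 CPM, and its call was lost without male 5. Hfe2, the hemojuvelin gene, lost its call without female 2, female 5, male 2 or male 4. Of 5 erythroid markers, 1 passed the test, the X-linked red-cell heme synthase Alas2, with 439 counts in females and 3024 in males. The other 4, all globins, overlapped between the sexes, with summed levels of 182 to 335 CPM in females and 260.0 to 348 CPM in males. Their part in the heme and iron counts was not tested.

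Antioxidant genes had 3 higher in females and 4 in males of 22 tested. Cat, catalase of peroxisomes, was at 2488 ± 78.3 and 3208 ± 68.0 CPM, Ephx2, the soluble epoxide hydrolase, at 597 ± 39.6 and 884 ± 32.0 CPM. Cbr1, higher in females by 0.42 on the log2 scale, lost its call without female 1. Nuclear-encoded oxidative phosphorylation had 4 of 30 past the test, near the 10.2% of all autosomal genes, each higher in males and by less than 1 on the log2 scale, with Cox7a2 of complex IV at 62.0 ± 4.85 and 93.0 ± 4.20 CPM. The calls of Ndufs1 (without female 4, female 5, male 3 or male 4), Ndufb3 (without female 2 or female 5) and Ndufa4 (without female 4, female 5 or male 3), subunits or partners of the respiratory chain, each rested on single libraries. The number called was 2 without female 4 or male 3 and 1 without female 5.

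Major urinary proteins are lipocalins that liver secretes and urine carries as pheromone binders. Of 19 tested members, 14 passed the test, each higher in males, with a median log2 difference of -1.78. Mup20, known as darcin, on chromosome 4 (62011337 to 62054143) was at 842, 1061, 547 and 923 CPM in the males and at 9.68, 8.15, 11.5 and 8.83 CPM in the females. The sexes were 88.8-fold apart by the edgeR estimate. Mup3 was at 238 ± 25.3 and 981 ± 115 CPM, Mup21 at 3.97 ± 0.821 and 63.9 ± 15.5 CPM and Mup12 at 0.958 ± 0.339 and 38.7 ± 8.35 CPM. These genes are near copies in a single cluster, so single members are uncertain. The list's count was 8 without female 5.

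Among immune genes, most differences were higher in females. The median size among called members was 0.60 on the log2 scale, against 0.62 among all called autosomal genes. Complement was the exception in direction, with 6 members higher in females and 7 in males of 31 tested. C3 on chromosome 17 (57203967 to 57228136), the central component, was at 7211, 8858, 9081 and 9450 CPM in the females and at 5167, 4627, 4899 and 4372 CPM in the males. Females were higher in every library by 0.86 ± 0.12 on the log2 scale (edgeR adjusted p = 3.17e-05). Mbl2, the mannose-binding lectin, was at 636 ± 51.2 and 410.3 ± 23.9 CPM. C6, a component of the membrane attack complex, was at 13.4, 14.9, 13.8 and 20.1 CPM in the females and at 94.8, 144, 80.0 and 146 CPM in the males. It was 7.45-fold higher in males by the edgeR estimate. Cfd, which activates the alternative pathway and is chiefly an adipocyte product, had 3 counts over all females and 424 over all males, a ratio of 142 with a 95% counting interval of 48.2 to 690.04. The adipocyte markers given with Cidec also bear on Cfd, and their part in the result was not tested.

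Coagulation genes had 8 of 23 members past the test, each higher in females. On the female side were 21 of 23 estimates (median 0.22), against 52.6% for all autosomal genes. Ahsg, fetuin A, which is counted in the hepatokine list as well, was at 8291 ± 796 and 5310.3 ± 357 CPM, 0.64 higher on the log2 scale. The other differences named were smaller: Plg, plasminogen, was at 2518 ± 176 and 1993 ± 122 CPM, F10 at 492 ± 39.1 and 387 ± 34.2 CPM, and Serpinf2, antiplasmin, at 844 ± 66.5 and 648 ± 39.5 CPM. F10 was 0.35 higher and Plg 0.34 higher on the log2 scale. Called members numbered 5 without female 2, male 3, male 4 or male 5. Acute phase proteins and serpins had 11 higher in females and 6 in males of 30 tested. Apcs, serum amyloid P, was at 152 ± 10.8 and 80.4 ± 6.10 CPM, and Serpina6, the corticosteroid-binding globulin, at 751 ± 43.2 and 445 ± 54.7 CPM. Serpina12, known as vaspin, was higher in males at 12.97 ± 4.26 and 54.8 ± 13.7 CPM, as was Serpina1c, an antitrypsin, at 2766 ± 182 and 4115 ± 519 CPM. Serpina3k was at 2993, 2859, 5076 and 3240 CPM in the females and at 6617, 6946, 4926 and 8532 CPM in the males, where female 4 overlapped male 4, and its call was lost without female 2 or female 5. Serpina4-ps1 was at 0.604 ± 0.355 and 31.2 ± 28.1 CPM and missed the threshold under limma voom. Serpina copies share sequence and are uncertain as single genes.

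Interferon-stimulated genes had 11 of 38 members past the test, each higher in females. Of the 38 estimates, 35 were on the female side, against 52.6% for all autosomal genes. The median log2 difference was 0.45, against 0.02 over all autosomal genes. Gbp3, a guanylate-binding GTPase, was at 22.6, 26.8, 28.8 and 28.3 CPM in the females and at 13.3, 13.1, 8.78 and 11.3 CPM in the males. Ifit1, which binds foreign RNA caps, was at 20.6, 20.8, 24.7 and 25.7 CPM in the females and at 11.8, 14.9, 12.7 and 15.4 CPM in the males. Both sets of females were above all males, by 1.21 ± 0.19 and 0.74 ± 0.16 on the log2 scale (edgeR adjusted p = 0.000224 and 0.00263). Ifi44 was 1.20 higher and Bst2, which tethers viruses to cells, 0.46 higher. The number called was 5 without female 2 and 6 without female 4 or male 4.

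Antigen presentation had 4 members higher in females and 1 in males of 23 tested. H2-T23, a non-classical class I gene, was at 258 ± 18.8 and 184 ± 17.9 CPM, while H2-Q10, the soluble class I gene of liver, was at 361 ± 29.5 and 466 ± 14.1 CPM. The calls of Tap2 (without male 4 or male 5) and H2-T22 (without female 1) rested on single libraries. The list's count was 3 without female 1 or male 5 and 8 with the 8 libraries fitted alone. Chemokines, cytokines and their receptors had 4 and 1 of 34, also near the 10.2% of all autosomal genes, and 3 in all without female 4. Ccl9, a macrophage chemokine, was at 77.3, 84.6, 74.2 and 69.5 CPM in the females and at 50.5, 39.5, 37.9 and 38.8 CPM in the males, with male 2 apart from the other males. Csf1, the growth factor of macrophages, was at 11.2 ± 0.738 and 6.24 ± 0.174 CPM. Il1rap, a receptor subunit of interleukin 1, was the member higher in males, at 200.6 ± 6.66 and 277 ± 24.0 CPM. Cxcl12 lost its call without female 4 or male 3. Innate sensing had 1 of 27, below that share: Ticam1, the adaptor TRIF, was 0.63 higher in females on the log2 scale (edgeR adjusted p = 0.0335). It lost its call without female 2, female 4, male 2 or male 4, and the list's count ran from 0 without female 2, female 4 or male 4 to 4 without male 2. It was 3 without female 1, the Cyp2b-null female 3 or with DESeq2, and 2 with library totals only, no count filter, limma voom, the 8 libraries alone, or without the Cyp2b-null female 1, male 1, male 3 or male 4.

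The summed markers of Kupffer cells and macrophages were also higher in the female libraries. Summed over the 8 markers, their level was 412 to 558 CPM in females and 321 to 396 CPM in males. Of the 8, 1 passed the test, the X-linked Vsig4, and some overlapped, such as Adgre1 (149 to 228 counts in females, 121 to 195 in males). Markers of monocyte-derived macrophages of fatty liver overlapped as a sum, at 29.8 to 49.2 CPM in females and 35.85 to 42.15 CPM in males, and none passed. Sinusoidal endothelial markers overlapped between the sexes, at 244 to 335 and 269 to 304 CPM. Markers of T cells with NK cells (8) and of neutrophils (6) were too low to be tested, with sums of at most 7.87 CPM in every library. The part of macrophage numbers in the immune differences was not tested.

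Signalling genes included some of the most distinct receptors and regulators. In the growth hormone, prolactin and STAT5 list 4 members were higher in females and 1 in males of 22 tested. Prlr on chromosome 15 (10177238 to 10349190), the prolactin receptor, was at 388, 433, 434 and 353 CPM in the females and at 118, 135, 143 and 120.03 CPM in the males. Females were 3.11-fold higher by the edgeR estimate (log2 difference 1.64 ± 0.10, edgeR adjusted p = 2.22e-11). Igfals, which stabilises IGF1 in plasma, was at 144 ± 27.6 and 81.9 ± 17.7 CPM. Stat5a lost its call without male 5, and Ptpn6, a phosphatase that dampens cytokine receptors, overlapped between the sexes and lost its call without female 2, female 4, female 5, male 2, male 3 or male 5, with no count filter, and with the 8 libraries fitted alone. Igf1 and Stat5b, named after their values were seen, were at 657 ± 82.6 and 589 ± 66.1 CPM (adjusted p = 0.378) and at 64.0 ± 3.66 and 60.1 ± 9.63 CPM (0.705). Called members numbered 3 without female 2, female 4, female 5 or male 3 or with the 8 libraries alone, and 2 without male 5.

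Among 25 tested transcription factors linked to sex-dependent liver, 3 were higher in females and 5 in males. Cux2 on chromosome 5 (121857962 to 122050415), the repressor of male genes in female liver, was at 14.5, 24.2, 24.2 and 9.60 CPM in the females and at 0.153, 0, 0.225 and 0.237 CPM in the males. The sexes were 99.9-fold apart by the edgeR estimate, with counts near 0 in males (log2 difference 6.64 ± 0.78, edgeR adjusted p = 4.94e-06). Trim24, a cofactor of nuclear receptors, was at 70.4 ± 5.21 and 24.96 ± 6.27 CPM. Males were higher for Zbtb20, which represses fetal liver genes, at 148 ± 11.7 and 216 ± 17.5 CPM. Bcl6, the male-biased repressor, was named after its values were seen and was at 15.9 ± 7.96 and 25.9 ± 17 CPM (adjusted p = 0.358). The number called was 5 without male 2 or male 3.

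Nuclear receptors were divided, 3 higher in each sex of 23 tested, and the count was 11 with the 8 libraries fitted alone. Esr1, oestrogen receptor alpha, was at 28.5, 42.3, 31.9 and 41.7 CPM in the females and at 11.9, 18.9, 14.3 and 16.4 CPM in the males, a log2 difference of 1.24 ± 0.17 (edgeR adjusted p = 2.49e-05). The dioxin receptor Ahr, listed with them, was at 68.8 ± 13.1 and 38.1 ± 7.91 CPM. Pparg, the receptor that drives fat storage, was higher in males at 13.9 ± 1.36 and 22.4 ± 5.33 CPM, and its call was lost without male 3.

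EGF receptor and ERK feedback genes had 1 higher in females and 4 in males of 32 tested, a share of 15.6% against 10.2% of all autosomal genes. Dusp6, a phosphatase that switches off ERK, was at 73.4, 61.5, 57.2 and 55.7 CPM in the females and at 29.2, 31.5, 31.3 and 32.1 CPM in the males, 0.997 ± 0.14 higher in females on the log2 scale (edgeR adjusted p = 5.99e-05). Dusp4, another such phosphatase, was lower in females, at 0.766 ± 0.136 and 2.21 ± 0.615 CPM, and lost its call without female 2. Jun, part of AP-1, was at 10.2 ± 0.661 and 21.2 ± 10.3 CPM and lost its call without female 1, female 2, female 4, female 5, male 3 or male 4, with no count filter, and with the 8 libraries fitted alone. Btc, betacellulin, was at 1.90 ± 0.348 and 4.33 ± 0.746 CPM. The count was 2 without female 2 and 3 without female 4, male 3 or male 4 or with no count filter.

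Insulin and FOXO signalling had 3 of 32 past the test, close to the 10.2% of all autosomal genes: Akt1 (61.2 ± 5.65 and 39.8 ± 4.15 CPM) and Irs1 (45.1 ± 6.64 and 26.6 ± 2.87 CPM), both of the insulin cascade, were higher in females, and Prkaa2, an AMPK catalytic subunit, was higher in males. The count was 5 without female 1 or male 2 and with DESeq2. TGF-beta, BMP and Notch signalling had 2 of 36, below that share. Tgfbr2, the type II receptor, was at 14.2 ± 3.18 and 24.4 ± 5.27 CPM, and Smad6, an inhibitor of BMP signals, lost its call without female 1, female 2, female 5, male 3 or male 4, so that the count was 1 without female 1, female 2, female 5 or male 3.

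WNT signalling and pericentral targets had 5 members higher in females and 1 in males of 26 tested, with a median log2 difference of 0.38. Notum on chromosome 11 (120653788 to 120661193), a secreted enzyme that inactivates WNT proteins and is itself a WNT target, was at 53.4, 43.9, 59.8 and 53.6 CPM in the females and at 27.6, 22.8, 24.99 and 25.1 CPM in the males. Lgr5, a receptor of R-spondins that marks hepatocytes near the central vein, was at 19.1, 11.4, 17.1 and 18.6 CPM in the females and at 9.32, 6.46, 3.71 and 7.84 CPM in the males. All females were above all males, by 1.07 ± 0.13 and 1.29 ± 0.21 on the log2 scale (edgeR adjusted p = 5.1e-06 and 0.000212). Of the Frizzled receptors, Fzd8 was higher in females (44.2 ± 6.36 and 20.2 ± 1.46 CPM) and Fzd4 in males (19.4 ± 3.44 and 30.9 ± 2.81 CPM).

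Hepatokines and FGF signalling had 8 members higher in females and 1 in males of 23 tested. Agt, angiotensinogen, was at 827, 946, 876 and 893 CPM in the females and at 621, 602, 558 and 525 CPM in the males. Thpo, thrombopoietin, was at 14.5 ± 2.25 and 8.69 ± 1.45 CPM, and Smoc1 at 137 ± 8.22 and 103 ± 6.54 CPM. Circadian genes had 2 and 4 of 22, and 10 in all with the 8 libraries alone. Nfil3, a repressor of the clock output, was at 25.5 ± 4.30 and 12.9 ± 1.502 CPM, while Bhlhe41 (2.06 ± 0.704 and 5.79 ± 1.59 CPM) and Wee1 (10.2 ± 3.02 and 22.1 ± 3.92 CPM) were higher in males. Nampt, the NAD salvage enzyme, lost its call without female 4. G protein-coupled receptors had 2 and 4 of 21. Avpr1a, the vasopressin receptor of hepatocytes, was at 37.4, 29.7, 39.8 and 33.0 CPM in the females and at 13.3, 13.1, 6.75 and 15.3 CPM in the males. The adenosine receptor Adora1, the purine receptor P2ry1 and the orphan receptor Gpr146 were higher in males, by 0.67 to 0.83 on the log2 scale.

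The same sex contrast in Cyp2b-null mice called 958 autosomal genes (7.52%), and 564 were called in both genotypes. These were 43.2% of the hCYP2B6-Tg calls and 58.9% of the Cyp2b-null calls, and 563 of 564 had the same direction. The contrasts share no library, but share one fit. Across all 12739 autosomal genes, which are not independent of each other, Pearson's r of the log2 differences was 0.81 and Spearman's rho 0.46. Of the 741 genes called in hCYP2B6-Tg alone, 644 had the same direction in Cyp2b-null. The largest differences were present in both: Cyp3a41a was at 659.5 ± 291 CPM in Cyp2b-null females and 0.197 ± 0.161 in males, and Mup20 at 8.36 ± 1.96 and 813 ± 235 CPM.

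No member of the lipid and sugar lists passed the test of the difference between genotypes. De novo lipogenesis had 5 calls in hCYP2B6-Tg and 0 in Cyp2b-null by edgeR (1 at an unadjusted p under 0.05, against 19.9% of all genes tested), where the median was 0.07, and cholesterol genes had 9 and 1. Scd1 was at 7452, 8616, 7908 and 12133 CPM in Cyp2b-null females 1, 3, 4 and 5 and at 12969, 10601, 8693 and 7981 CPM in Cyp2b-null males 1, 2, 3 and 4. These groups overlapped, and their means of 9027 and 10061 CPM lay between the hCYP2B6-Tg female mean of 5074 and male mean of 15401 CPM. The difference of the sex effects for Scd1 was -1.45 ± 0.58 on the log2 scale (edgeR adjusted p = 0.592). Elovl5 was at 1163 ± 83.8 CPM in Cyp2b-null females and 1094 ± 113 in males, with a difference of -0.75 ± 0.17 (edgeR adjusted p = 0.264). Interaction estimates for Gpam (-1.003), Me1 (-0.95), Khk (-0.50), Pklr (-0.54) and Acat2 (-0.48) had edgeR adjusted p between 0.360 (Khk) and 0.564 (Pklr). At an unadjusted p under 0.05, the sex effect differed between genotypes for 9 of 17 lipogenesis, 8 of 23 nuclear receptor, 4 of 13 desaturase and elongase, 8 of 31 complement, 8 of 32 EGF receptor, 5 of 25 cholesterol and 5 of 31 glucose members, against 7.76% of autosomal genes. These are only some of the 38 lists. The share was also above 7.76% in others, among them bile acid (5 of 26), P450 (8 of 45), growth hormone (4 of 22) and circadian genes (4 of 22). It was 0 of 23 for coagulation, 0 of 30 for acute phase and 0 of 38 for interferon-stimulated genes.

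**Figure D4:**
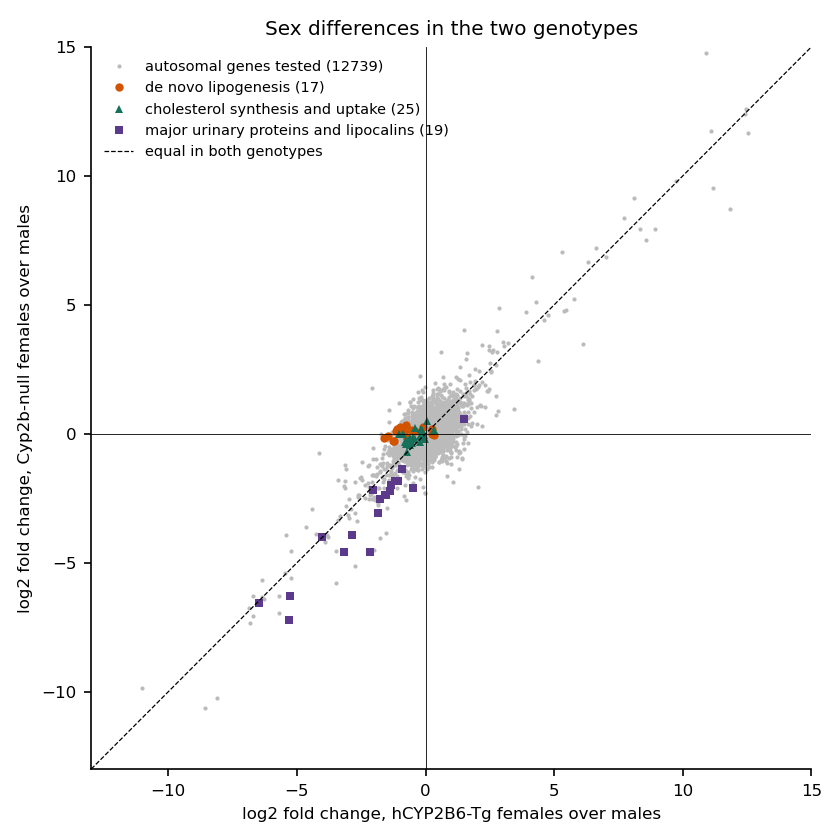
Log2 fold change of females over males in hCYP2B6-Tg (horizontal) and Cyp2b-null liver (vertical) for the 12739 autosomal genes tested, with 3 lists coloured. Major urinary protein genes lie along the dashed line of equal difference, whereas lipogenesis members lie to the left near a vertical value of 0 (list medians -0.74 and 0.07).

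The difference of the sex effect passed the test for 6 autosomal genes, or 0.0471%. E2f8, an E2F factor of polyploid hepatocytes, was at 14.3, 21.9, 22.4 and 22.01 CPM in hCYP2B6-Tg females and at 11.1, 7.54, 9.68 and 11.5 CPM in hCYP2B6-Tg males, and at 11.4 ± 5.34 and 20.5 ± 3.22 CPM in Cyp2b-null females and males. The Cyp2b-null sexes overlapped for E2f8, with female 1 at 19.1 CPM and male 1 at 15.7 CPM. Wipf3, of the WASP-interacting family, was at 8.48 ± 0.925 and 15.005 ± 2.48 CPM in hCYP2B6-Tg and at 13.2 ± 3.27 and 9.14 ± 1.23 CPM in Cyp2b-null. For these 2 the means of the sexes were in opposite order in the genotypes, with interaction estimates of 1.92 ± 0.33 and -1.35 ± 0.24 (edgeR adjusted p = 0.0445 and 0.042). Pim1, a STAT5-induced kinase of the growth hormone list, was at 14.1, 16.9, 12.7 and 15.7 CPM in hCYP2B6-Tg females and at 15.7, 10.5, 13.6 and 14.8 CPM in hCYP2B6-Tg males. Those groups overlapped, while Cyp2b-null females were at 10.2 ± 3.11 and males at 24.9 ± 3.24 CPM. Ccdc141 and Rasgef1b overlapped in hCYP2B6-Tg and were higher in females in Cyp2b-null. Ablim3 was lower in females in Cyp2b-null and did not pass in hCYP2B6-Tg (adjusted p = 0.0631).

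None of the 6 kept its call without each single library, and the count ran from 0 to 12 when a library was left out. It was 0 without the Cyp2b-null female 4, male 2, male 3 or male 4 and without female 2, female 4, female 5, male 3, male 4 or male 5 of hCYP2B6-Tg, 3 without the Cyp2b-null female 1 or the hCYP2B6-Tg male 2, and 12 without the hCYP2B6-Tg female 1. Next in order were Keg1 and Egfr. Egfr, the EGF receptor on chromosome 11 (16752203 to 16913907), was at 58.2, 101, 93.3 and 125 CPM in hCYP2B6-Tg females and at 168, 182, 143 and 142 CPM in hCYP2B6-Tg males. Its Cyp2b-null values were 69.0 ± 18.2 in females and 405 ± 32.7 in males, so the log2 difference was -0.75 ± 0.21 in hCYP2B6-Tg and -2.55 ± 0.22 in Cyp2b-null, with an adjusted p of 0.0539 for the difference between genotypes. The call within hCYP2B6-Tg (adjusted p = 0.0349) was lost without female 2, female 4, male 2, male 3, male 4 or male 5, with no count filter, and with the 8 libraries fitted alone.

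**Figure D5:**
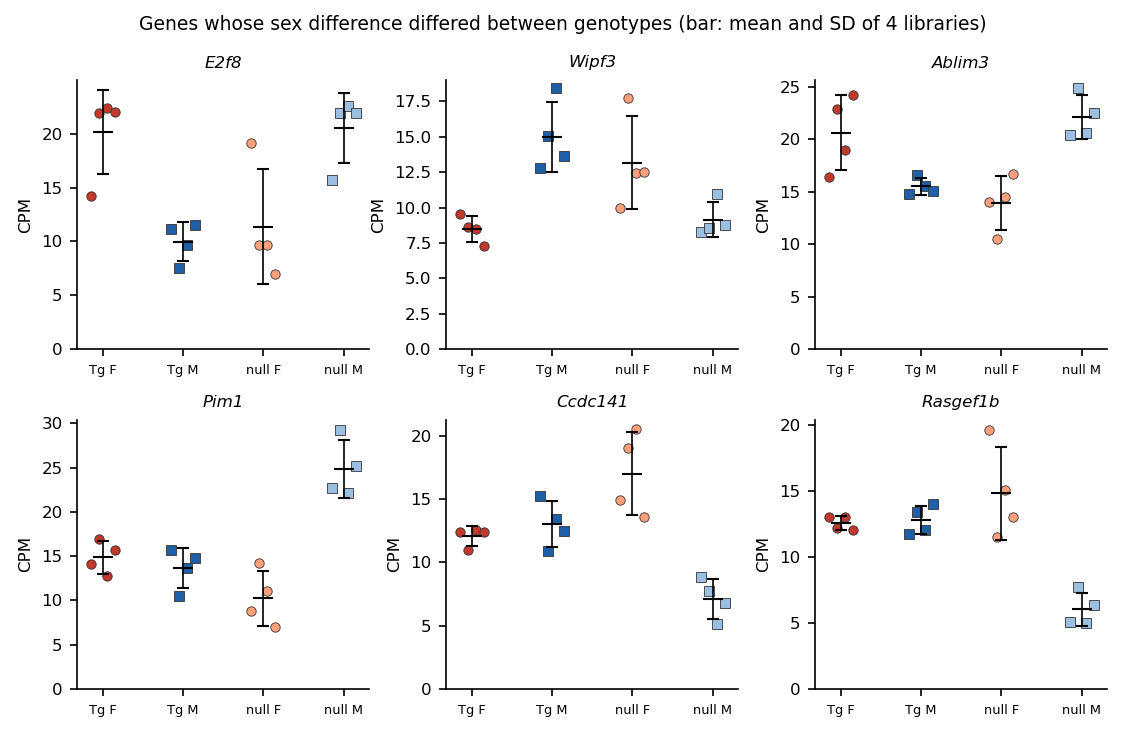
CPM per library of the 6 genes whose sex difference passed the test of the difference between genotypes, in the same 4 groups, with the mean and SD of 4 libraries as a bar. The means of E2f8 and Wipf3 reverse their order between genotypes, although the sexes overlap for E2f8 in Cyp2b-null. Pim1, Ccdc141 and Rasgef1b overlap in hCYP2B6-Tg and separate in Cyp2b-null.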

How the data were processed

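Liver RNA was measured by sequencing in 16 libraries, 4 for each genotype and sex, grouped by their titles. The deposited table holds whole-number counts per gene and library made by the authors. Subread, GSNAP, Trimmomatic, FastQC and edgeR are listed in the submitters' processing notes with the build GRCm38.p6, in no order and without versions. Strand and multi-mapping settings were not stated there, so close copies and overlapping genes are uncertain. Of 41585 rows, 16032 were 0 throughout, and 37069 symbols matched RefSeq, from which coordinates (GRCm38.p6) were taken.

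Genes were filtered with filterByExpr and scaled by TMM in edgeR 4.0.16 (R 4.3.3). The main test was the two-sided quasi-likelihood F test with robust estimation on a single fit of all 16 libraries in 4 groups, adjusted by Benjamini-Hochberg over 13470 genes, with a threshold of 0.05. Females were set against males within each genotype, and the difference between the genotypes was an interaction term. Standard errors come from the log2 difference and its F statistic. A group without counts was set at a limit of 3 counts, and ratios with 1 to 3 counts have 95% counting intervals. The script was tested on simulated data.

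The lists, members and tests were chosen with earlier results of these data known. Member genes named are autosomal (Xist, Ddx3y, Vsig4 and Alas2 serve as label or cell type markers). They are the 12 with the largest difference in each direction (past the threshold, at least 1 CPM in the higher sex, no overlap, no predicted name), up to 4 members of each list by adjusted p, the 10 with the smallest p for the genotype difference and the 4 most abundant past the threshold in each direction (Trf, C3, Ahsg and Ces1c, and among males Scd1, Serpina3k and Ttr). Others are marked where named, and some genes the rule names are not reported here. Alternatives were RLE factors, library totals, other count filters, DESeq2 1.42.0, limma 3.58.1 voom, the 8 libraries of a genotype alone, a replicate block, ribosomal RNA rows left out, a threshold of 0.01 and each library left out. edgeR's older dispersion estimate was added after seeing the data.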

Additional observations from a re-analysis of the deposited data

Results flagged for a closer look

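A library far from the other 3 of its sex was found in 22 of 340 gene and group combinations checked (6.47%), where chance flags about 1 in 20. Values are CPM in hCYP2B6-Tg libraries. Female 1 stood low for E2f8 (14.3), Lcat (386) and Serpinf2 (744) and high for Wee1 (14.7), and held the single count of Cyp4a12a (0.134) and of Pitx3 (0.134). Female 2 was low for Ccdc141 (10.9) and held the single count of Cyp4a12b (0.116) and of Nat8f5 (0.116). Female 4 stood high for Cyp7b1 (27.6), Slco1a1 (6.96) and Sult3a1 (128) and low for Gbe1 (128) and Zbtb20 (131). Female 5 was low for Gsr (54.1), the glutathione reductase.

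Among males, male 2 stood high for Ccl9 (50.5), Serpinf2 (707) and Slco1a4 (129), male 3 for Sult2a1 (0.615), and male 4 for Fitm1 (71.4) and Ugdh (232). Male 4 was low for Gpr146 (103).

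The sex effect differed between genotypes for 6 genes by the interaction test, given as the log2 difference in hCYP2B6-Tg minus that in Cyp2b-null: E2f8 (1.92), Pim1 (1.42), Ablim3 (1.07), Rasgef1b (-1.30), Wipf3 (-1.35) and Ccdc141 (-1.38).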

How the results depend on the processing

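In hCYP2B6-Tg, 1381 genes changed by sex (632 higher in females, 749 higher in males), and 1013 changed in Cyp2b-null. Leaving out single libraries gave 981 to 1475, 437 to 678, 544 to 828 and 749 to 1046 in that order. At an adjusted p of 0.01 the counts were 697, 296, 401 and 551. The replicate numbers in the titles were not taken as pairs. Same-numbered hCYP2B6-Tg libraries (2, 4 and 5) correlated by 0.0768, 0.122 and 0.00754 in their deviations from the group means. Females 2 and 4 correlated best with the male of their number, whereas female 5 correlated best with male 2 (0.0779). With the number as a replicate block the counts were 767, 354, 413 and 574. A number seen in a single sex carries no sex information in that fit. This held for female 1 and male 3 of hCYP2B6-Tg and for female 5 and male 2 of Cyp2b-null. The lower counts therefore do not tell whether same-numbered libraries are pairs. The 6 genes whose sex effect differed between genotypes became 0 by edgeR with library totals only (1063 genes at an unadjusted p under 0.05) or at 0.01 (1037), 16 with DESeq2, 3 with limma voom, 2 with the replicate block, and 0 to 12 without single libraries (903 to 1109 at an unadjusted p under 0.05 where the count was 0). The block ended or added 37 calls of named genes and genotype differences. Other scalings and filters, voom, DESeq2 and the older estimate left the sex counts within 1.5 times.

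Of 165 named genes past the threshold, 141 kept their call without any of the 16 libraries left out in turn, 24 lost it without at least 1, and 0 reversed under any setting. Under the 10 other settings, not counting the threshold of 0.01, 128 of the 165 kept their call in each. Calls lost with the replicate block are not given gene by gene above. Of list counts, 51 of the values under other settings fell and 13 rose by more than 1.5 times, 28 of them at 0.01 and 18 with the replicate block. The medians of the EGF receptor, G protein-coupled receptor, TGF-beta, apolipoprotein, complement, fatty acid oxidation and heme lists lay near 0 and changed sign between TMM, RLE and library totals. A fit of the genotype difference from 8 libraries was not possible and was not run. Depth limits genes near 0 in one sex, where only ratios or bounds hold.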
